A study of Capra hircus with 12 samples.

Results

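The miR-148 and miR-152 family was followed through the yearly cycle of cashmere growth in small RNA libraries of goat secondary hair follicles (SHFs), the small follicles that produce the cashmere. Members were taken by name, as every listed miRNA named miR-148a, miR-148b or miR-152 with either arm. Of the 376 listed miRNAs, 4 matched, listed as chi-miR-148a-3p, chi-miR-148a-5p, chi-miR-148b-3p and chi-miR-148b-5p (the prefix is left out below). No arm of miR-152 was among the listed miRNAs, so it was not analysed here. All 4 passed the filter on low counts, as 300 of the 376 miRNAs did.

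The libraries came from SHFs cut from the scapular skin of Liaoning cashmere goats aged 1.5 years, dissected free of the primary follicles and the surrounding tissue. For each of 6 months there was 1 female and 1 male library, 12 in all. February and March represented telogen (the resting phase, 4 libraries), May early anagen and September mid-anagen (growth, 2 libraries each), and November and December catagen (regression, 4 libraries). The study sampled 3 goats of each sex per month, and how they were combined into libraries is not given in the sources used here, so tests measure the spread between these libraries.

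The mature 3p strands of miR-148a, miR-148b and miR-152 are known to share a seed, the stretch near the 5′ end by which a miRNA recognises its target mRNAs, and so are expected to act on overlapping sets of targets. The family is known for repressing DNA methyltransferase 1 (DNMT1), the enzyme that copies DNA methylation to new strands. A miRNA precursor is a hairpin with a 5p and a 3p arm. The 3p arm is the guide strand usually kept by Argonaute in this family, while the 5p arm is mostly degraded. In the RefSeq annotation of goat assembly ARS1.2, the gene of miR-148b lies within COPZ1, which encodes a subunit of the coatomer of transport vesicles. The gene of miR-148a lies between NPVF and NFE2L3, inside no protein-coding gene. No other annotated miRNA gene lies within 50 kb of either.

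The libraries held 3135292 to 5788032 counts on miRNAs, with a median of 4469051. The deposited TPM of a miRNA is its count scaled by that total. Counts were compared by the quasi-likelihood test of edgeR. Libraries were scaled with TMM, a method that assumes most miRNAs to be unchanged. TMM factors ran from 0.813 in the female November library to 1.29 in the male May library. With plain library totals in their place, the median log2 fold change of all tested miRNAs from May to September moved from 0.07 to -0.46, so values on both scales are given where they differ. A miRNA was called where its adjusted p was under 0.05 and it differed 2-fold or more. The labelled tissue was checked against a list of miRNAs typical of skin epithelium. Of its most abundant members, miR-203 had a mean TPM of 63230, miR-200c of 5705 and miR-200b of 5387. Another of this list, miR-205-5p, was not among the listed miRNAs. There was no library of epidermis or primary follicles to compare with. These levels thus show that epithelial miRNAs were present, and cannot tell secondary follicles from those tissues. In whole follicles, fewer cells of a type and less RNA per cell cannot be told apart.

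miR-148a-3p was among the most abundant miRNAs of these follicles. Its mean TPM of 87066 ± 23615 (SD, n = 12 libraries) ranked 4 of 376, just below miR-143-3p (89983) and above miR-203. It made up 8.71% of all counts on average. miR-148b-3p ranked 42 with a mean TPM of 2242 ± 471 (SD, n = 12), between miR-29a-3p and miR-708-3p. The passenger arms ranked 123 (miR-148a-5p, mean TPM 98.2 ± 19.9) and 167 (miR-148b-5p, 30.7 ± 5.97). Adapter ligation is known to favour some small RNA ends over others, so levels of different miRNAs are comparable only roughly.

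**Figure D1:**
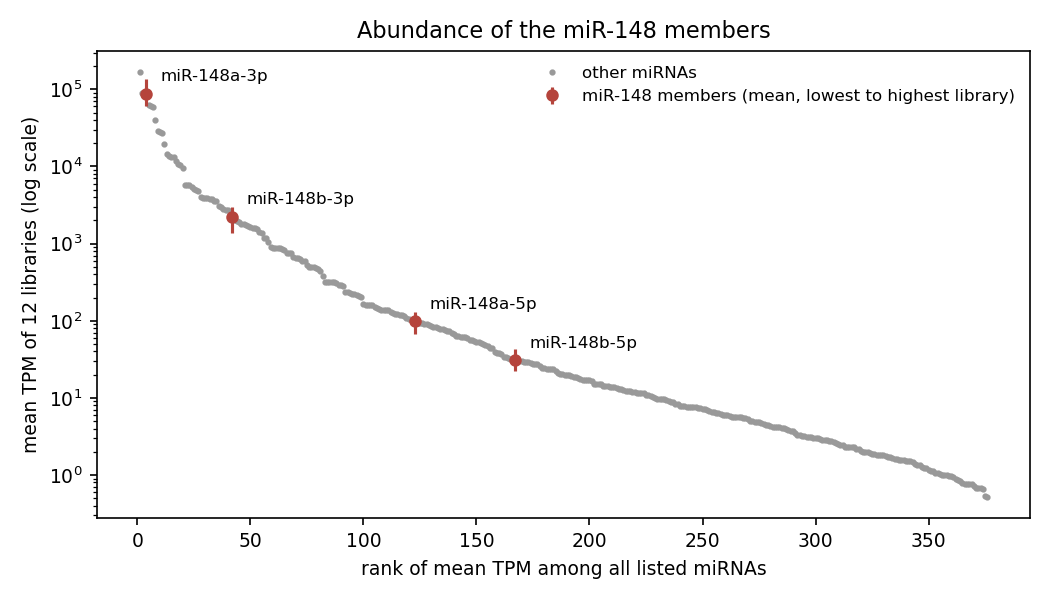
Mean TPM of each of the 376 listed miRNAs (log scale) against its rank. Red points are the family members, with lines from the lowest to the highest of the 12 libraries; miR-148a-3p lies at rank 4 and miR-148b-5p at rank 167.

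The lowest library of miR-148a-3p was the female March library (TPM 60195) and the highest the female September library (134754), 2.24 times as high. In telogen its TPM was 116352 (female) and 86819 (male) in February, and 60195 and 67212 in March. The May libraries held 64056 (female) and 66791 (male), and the September libraries 134754 and 97494. In catagen the values were 101740 (female) and 92085 (male) in November, and 63566 and 93730 in December. Both May libraries were thus below both September libraries, and 77% of all tested miRNAs had no overlap in TPM between these months. Telogen (60195 to 116352) and catagen (63566 to 101740) each reached from below both May libraries to above the male September library. By month, the mean TPM was 116124 ± 26347 in September, 101586 ± 20883 in February, 96912 ± 6827 in November, 78648 ± 21329 in December, 65424 ± 1934 in May and 63704 ± 4962 in March (SD, n = 2 each). Each neighbouring pair in this order differed by less than the larger of its SDs.

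In TPM the guide strand of miR-148b, the intronic member, ran a different course. After TMM normalization both guide strands had their highest monthly mean in September, for miR-148b-3p 3046 against 2240 in May. The TPM of miR-148b-3p was 1721 (female) and 1975 (male) in February, and 1393 and 2032 in March. It was 2964 and 2711 in May, 2716 and 2635 in September, 2446 and 2026 in November, and 1909 and 2372 in December. In TPM the 4 anagen libraries all lay above every library of telogen and catagen. Of all tested miRNAs, 37.7% had no overlap in TPM between telogen and May, 49.7% between telogen and September, 65.7% between May and catagen and 19% between September and catagen. After TMM normalization 3 of the 4 anagen libraries, the female May (2374), male May (2107) and male September (2889) libraries, lay within the range of catagen (2083 to 3009).

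Of the passenger arms, miR-148a-5p had a TPM of 115 (female) and 132 (male) in February, 102 and 112 in March, 121 and 103 in May, and 93.5 and 98.7 in September. In November it was 76.1 and 66.7, and in December 77.1 and 81.7. The TPM of miR-148b-5p was 32.0 (female) and 42.8 (male) in February, 33.6 and 35.8 in March, 31.9 and 35.7 in May, 25.7 and 26.0 in September, 22.6 and 22.4 in November, and 29.8 and 30.3 in December. On this scale the lowest library of both passenger arms was the male November library, and for each arm the telogen and catagen libraries did not overlap. This was so for 28.7% of the 300 tested miRNAs. After TMM normalization both ranges overlapped. The smallest count behind these values was 78, for miR-148b-5p in the female November library, and its TPM of 22.6 had a 95% Wilson interval of 18.1 to 28.2, which covers counting error only.

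**Figure D2:**
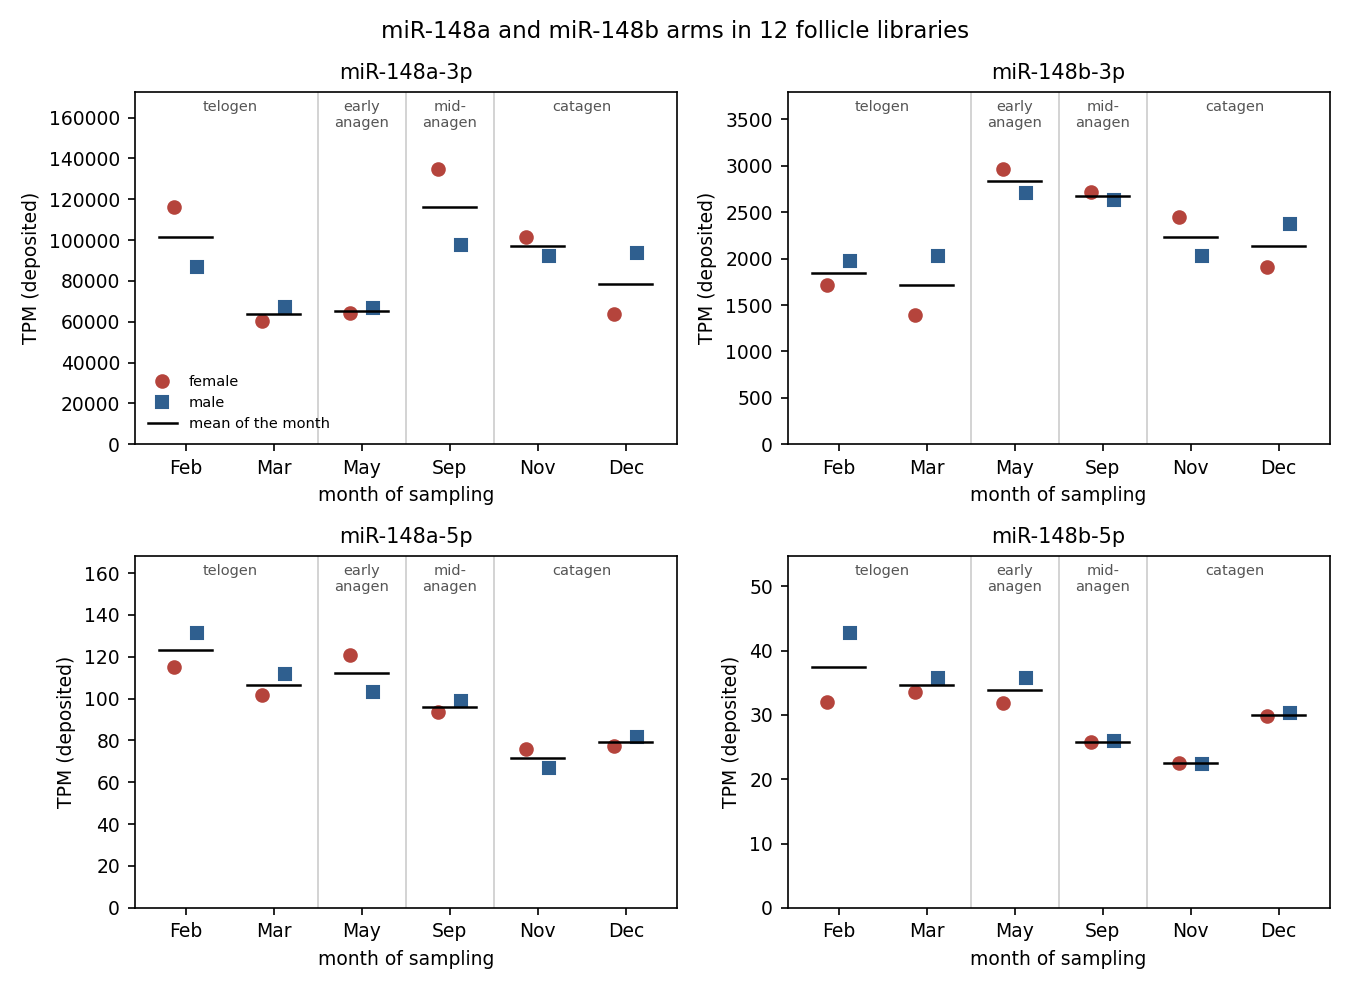
Deposited TPM of the 4 members in each library by month of sampling, with circles for female and squares for male libraries and a bar at the mean of each month. miR-148a-3p is high in September and low in March and May, whereas miR-148b-3p is highest in May and September.

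From May to September, the step from early to mid-anagen, miR-148a-3p rose 2.58-fold. Its log2 fold change was 1.36 (SE 0.35, 95% interval 0.61 to 2.12, adjusted p = 0.011), and it was the only member called, 1 of 4, against 18.3% of all tested miRNAs (9.67% called higher in September). Of all miRNAs, 29 of the 55 called were higher with TMM, and 9 of 80 with library totals. The call rests on few libraries, and where 1 of 2 was left out the remaining library was assumed to vary like the other groups. Without the female September library the value was 1.05 (adjusted p = 0.0932), and without the female or the male May library it was 1.09 (0.117) and 1.35 (0.0689). With library totals it was 0.83, under the 2-fold limit (adjusted p = 0.0367).

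miR-148b-3p was not called in this step, at a log2 fold change of 0.44 (SE 0.19, adjusted p = 0.088), and with library totals the sign turned to -0.08. miR-148a-5p (0.30, adjusted p = 0.237) and miR-148b-5p (0.14, adjusted p = 0.625) were not called either, and with library totals they were at -0.22 and -0.39. With library totals, miR-148a-3p was thus the only member with a positive value. The median of all tested miRNAs on that scale was -0.46, and every member lay above it.

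Among the 25 miRNAs with a mean TPM over 5000, 2 were called from May to September, miR-148a-3p and miR-143-3p (1.17), both higher in September. miR-148a-3p had the highest log2 fold change of the 25 with TMM and also with library totals. This set of 25 was chosen after values were seen. Some marker miRNAs of the cell types fixed in lists were also called over this step. The summed TPM of the muscle list, all 4 of 4 listed and 3 tested, was 2020 to 2665 in May and 3336 to 3410 in September, and miR-1, the muscle marker with the highest mean TPM, was called higher, while the list median log2 fold change was -0.19. The sum of the mesenchyme list, all 6 of 6 listed, was 119046 to 122015 in May and 132438 to 132559 in September, with miR-143-3p, its most abundant member, as the call and a list median of -0.00087. That of the epithelial list, 6 of 7 listed, was 81375 to 88411 and 56735 to 72600, and miR-200a was called higher in September, with a list median of 0.21. No miRNA of the leukocyte, erythrocyte or endothelium lists was called in this step, at list medians of 0.90, -0.54 and -0.02. In situ hybridization by the study placed the most abundant member of the mesenchyme list in the hair matrix and not in the bulge. The sum of that list is thus no measure of mesenchyme alone. The part of any of these lists in the rise of miR-148a-3p was not tested.

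Between telogen and mid-anagen, no member was called, where 9.33% of all tested miRNAs were (14 of the 28 higher in September, or 4 of 42 with library totals). miR-148b-3p came closest. September exceeded telogen by 0.92 on the log2 scale (SE 0.16, 95% interval 0.58 to 1.26, adjusted p = 0.00245), or 1.90-fold, with no overlap of the libraries. A value past the adjusted p at any fold was found for 25.3% of all miRNAs, and libraries did not overlap in TPM for 49.7%. The adjusted p stayed under 0.05 in all 12 fits that each left out 1 library, with at most 0.0424, and with library totals (log2 fold change 0.59, adjusted p = 0.0206). miR-148a-3p was at 0.81 (SE 0.29, adjusted p = 0.0582), and without the female February library it was called, at 1.06 (adjusted p = 0.0118). The passenger arms lay at 0.06 and -0.15. With library totals miR-148a-3p was at 0.49 (adjusted p = 0.143), miR-148a-5p at -0.26 and miR-148b-5p at -0.48.

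Between catagen and telogen, regression and rest, no member was called. miR-148b-3p was lower in telogen than in catagen, at a log2 fold change of -0.67 (SE 0.13, 95% interval -0.96 to -0.38, adjusted p = 0.00278), a 1.59-fold difference under the limit for a call. Among all tested miRNAs 10.7% were called here (19 of 32 higher in telogen, or 43 of 48 with library totals) and 35% passed the adjusted p at any fold. It passed in all 12 fits that each left out 1 library (adjusted p at most 0.0137), but not with library totals (-0.30, adjusted p = 0.0925). miR-148a-3p was at -0.44 (SE 0.24, 95% interval -0.96 to 0.09, adjusted p = 0.168). The passenger arms had values of 0.25 for miR-148a-5p and 0.10 for miR-148b-5p. With library totals miR-148a-5p was at 0.61 and passed the adjusted p (0.00521). On that scale miR-148b-5p was at 0.45 (adjusted p = 0.0522) and miR-148a-3p at -0.09 (adjusted p = 0.743). The erythrocyte list, of which miR-451-5p and miR-144-5p are listed out of 4, also differed here, with a summed TPM of 5.41 to 26.4 in catagen and 27.9 to 115 in telogen, and miR-451-5p was called higher in telogen. The leukocyte list, 3 of 5 listed, summed to 387 to 533 in catagen and 425 to 650 in telogen, with miR-223-3p called higher in telogen and a list median log2 fold change of -0.05. Their part in the values of miR-148b-3p was not tested.

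Between May and catagen, miR-148a-3p was higher in catagen by a log2 fold change of 0.996 (SE 0.31, 95% interval 0.33 to 1.67, adjusted p = 0.0229), just under the 2-fold limit. Here 16.7% of all miRNAs were called (27 of 50 higher in catagen, or 10 of 82 with library totals) and 37% passed the adjusted p at any fold. It crossed the limit without the female December library (1.16) and without the female or the male February library (1.01 each). Without the female May library the value was 0.78 (adjusted p = 0.201), without the male May library its adjusted p was 0.129 and without the female November library 0.0565. With library totals it was 0.42 (adjusted p = 0.187). The other 3 members lay between -0.01 and 0.19. With library totals miR-148a-5p was lower in catagen, at -0.57 (adjusted p = 0.0124).

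From telogen to May no member was called, against 2.33% of all miRNAs. miR-148a-3p had a log2 fold change of -0.56 (95% interval -1.21 to 0.10) and miR-148b-3p of 0.48 (0.14 to 0.83), opposite in sign, with adjusted p of 0.242 and 0.0809. With library totals miR-148b-3p was at 0.67 and passed the adjusted p (0.0338), and miR-148a-3p was at -0.34 (adjusted p = 0.405). From September to catagen no member was called and neither was any other of the 300 miRNAs (0%), of which 23 had an unadjusted p under 0.05, while DESeq2, the likelihood-ratio test, RLE normalization and the filter of at least 10 counts in 4 libraries called 1 each. The values of the 4 members ran from -0.37 for miR-148a-3p to 0.05 for miR-148b-5p. The 95% interval of miR-148a-3p, which ended at 0.26, reached a 2-fold decrease at its lower end.

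**Figure D3:**
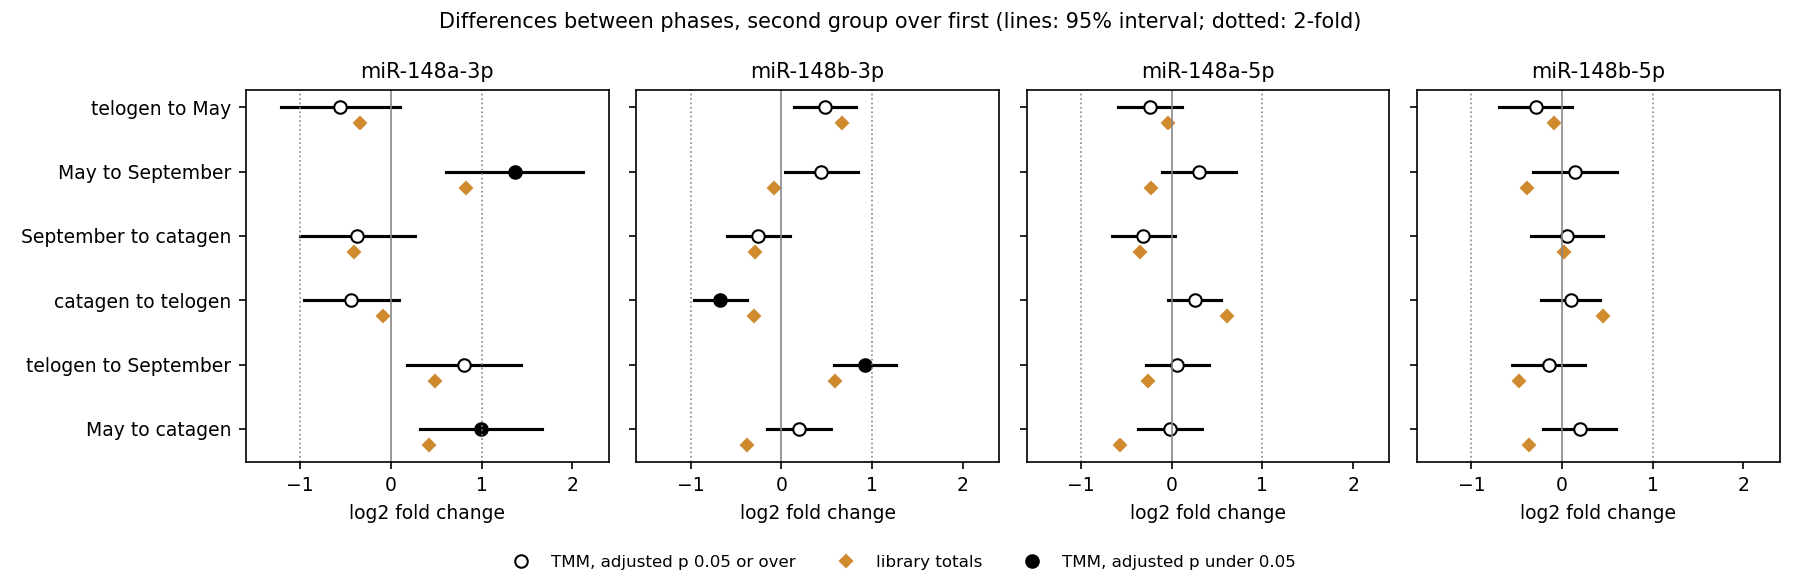
Log2 fold change of each member in the 6 comparisons of phases, second group over first. Circles are values after TMM normalization with lines for their 95% intervals, filled where the adjusted p is under 0.05, diamonds are values with library totals, and dotted lines mark 2-fold; only miR-148a-3p from May to September has a filled circle beyond 2-fold.

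Telogen and catagen hold 2 months each, so adjacent months were also compared in a fit with 6 month groups. From May to September miR-148a-3p was called here too (log2 fold change 1.36, SE 0.26, adjusted p = 0.00458), 1 of 4 members against 17.3% of all miRNAs. This step compares the same libraries as the phase fit did. Only the estimate of the spread differs, so the call is no independent second result. From February to March miR-148a-3p had a value of -0.77 (SE 0.26, adjusted p = 0.949). miR-148b-3p was at 0.58 from March to May (adjusted p = 0.175) and at -0.49 from December to February (adjusted p = 0.169). No member was called in any step other than May to September. In the step from December to February 1.33% of all miRNAs were called, and in each of the other 4 steps 0%.

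No member differed between the sexes past the test. With month as a term, the log2 fold change from female to male was -0.14 for miR-148a-3p (95% interval -0.47 to 0.20, adjusted p = 0.824), 0.01 for miR-148b-3p (-0.24 to 0.26, adjusted p = 0.983), -0.08 for miR-148a-5p and 0.03 for miR-148b-5p. The male library was the higher in TPM in 3 of 6 months for either guide strand, in 4 of 6 for miR-148a-5p and in 5 of 6 for miR-148b-5p. No miRNA was called between the sexes (0%). Whether the sexes differed otherwise in telogen than in catagen was tested after the data were seen, and no member passed (adjusted p between 0.576 and 0.987).

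Since miR-148a-3p and miR-148b-3p share a seed, their TPM was summed. The shared-seed total was 89308 ± 23708 on average (SD, n = 12). It was 61588 in the female March library and 137470 in the female September library, the extremes. Its mean by phase was 84425 ± 25188 for telogen and 89968 ± 16900 for catagen (n = 4 each), and 68261 ± 1755 for May and 118799 ± 26405 for September (n = 2 each). The TMM-normalized total was 53847 ± 244 in May and 135948 ± 37020 in September. miR-148a-3p supplied between 95.6% (female May) and 98.5% (female February) of this total.

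The ratio of both guide strands, which does not depend on how libraries are scaled, was lowest in May. There were 21.6 (female) and 24.6 (male) counts of miR-148a-3p per count of miR-148b-3p in May. In September the ratio was 49.6 and 37.0, in November 41.6 and 45.4, and in December 33.3 and 39.5. In telogen it was 67.6 and 44.0 in February and 43.2 and 33.1 in March. Both May libraries thus lay below the other 10, which ran from 33.1 to 67.6. How many other ratios of miRNAs set May apart in this way was not counted. For single miRNAs in TPM, May did not overlap telogen for 37.7% of those tested, September for 77% and catagen for 65.7%. The female February library stood highest. These guide strands are known to differ at only a few bases, and how reads that match both were assigned is not given in the sources used here, so the ratio is uncertain to that extent.

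**Figure D4:**
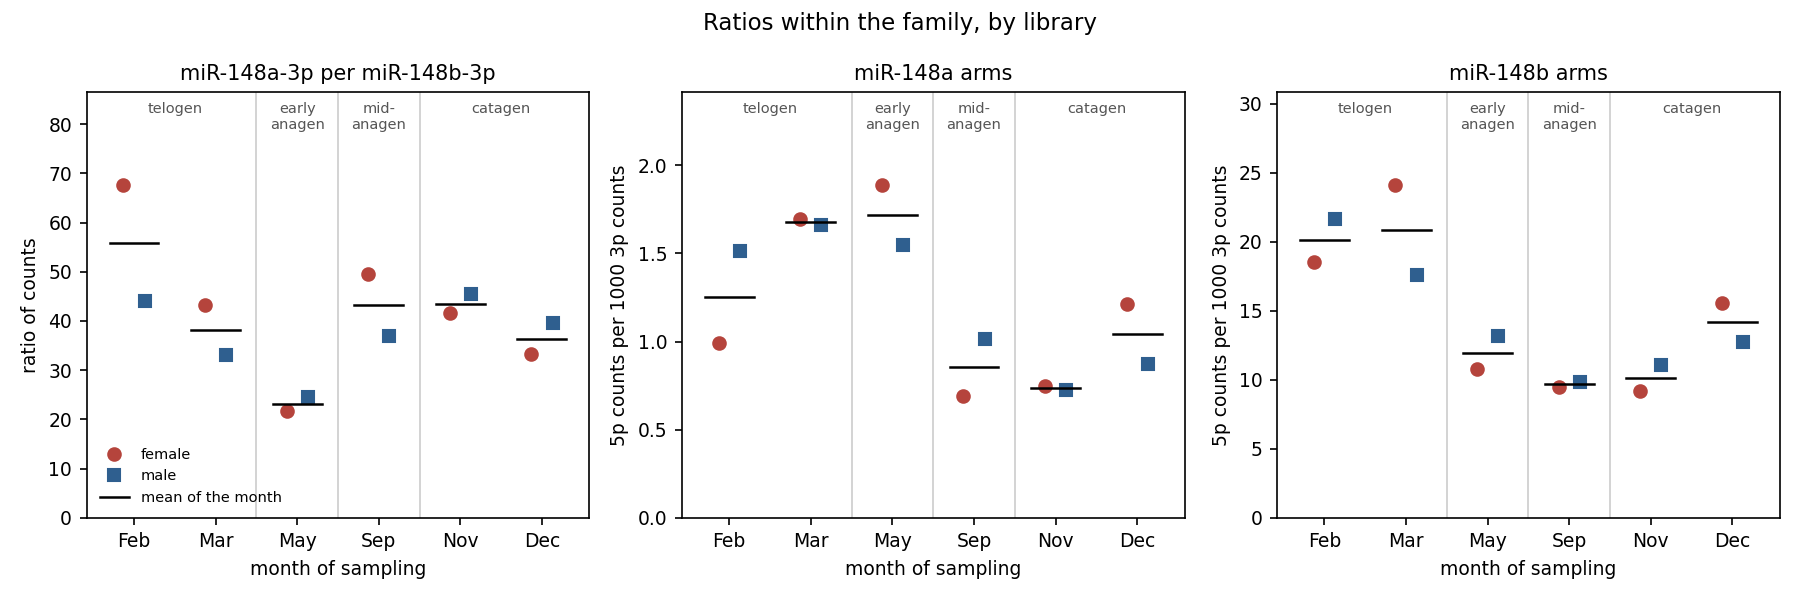
Counts of miR-148a-3p per count of miR-148b-3p, and counts of the 5p arm per 1000 counts of the 3p arm for miR-148a and miR-148b, in each library by month (circles female, squares male, bars the mean of the month). The guide-strand ratio is lowest in May, and the miR-148b arm ratio is highest in February and March.

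The arms of both precursors were strongly unequal. In miR-148a there were 0.694 (female September) to 1.89 (female May) counts of the 5p arm per 1000 counts of the 3p arm, with a mean of 1.21. In miR-148b there were 9.23 (female November) to 24.1 (female March), with a mean of 14.5. Of the 87 precursors with both arms listed and at least 10 counts on average in each, only 3 had a lower mean ratio of 5p to 3p than miR-148a, and 10 had a lower one than miR-148b.

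Arm ratios were tested with limma on their log2 values over these 87 precursors. Per 1000 counts of miR-148a-3p there were 0.990 (female) and 1.52 (male) of the 5p arm in February, 1.69 and 1.66 in March, 1.89 and 1.55 in May, 0.694 and 1.01 in September, 0.748 and 0.725 in November, and 1.21 and 0.872 in December. March and May were high, and September and catagen mostly low. The group means were 1.46 ± 0.325 for telogen (SD, n = 4), 1.72 ± 0.240 for May (n = 2), 0.853 ± 0.225 for September (n = 2) and 0.889 ± 0.225 for catagen (n = 4). The ratio fell from May to September by 1.03 on the log2 scale (SE 0.34, adjusted p = 0.0216). It was lower in catagen than in May by a log2 value of -0.97 (SE 0.30, adjusted p = 0.0134) and higher in telogen than in catagen by 0.72 (SE 0.24, adjusted p = 0.0236). September was lower than telogen by -0.77 (SE 0.30, adjusted p = 0.0478).

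These calls were no rarity. Between May and September 37.9% of the 87 precursors passed the same test, between May and catagen 41.4%, between catagen and telogen 49.4% and between telogen and September 39.1%. The miR-148a calls also depended on single libraries. That between May and September was lost without the female May library (-0.89, adjusted p = 0.141), the male May library (-1.17, 0.0547) or the female September library (-0.76, 0.203). That between telogen and September was kept in 4 of 12 fits that each left out 1 library, those without the male September, male November, female December or female February library, and its value ran from -1.05 to -0.50. That between catagen and telogen was lost without either November library, either March library or the male February library, at values of 0.63 to 0.69 (adjusted p up to 0.0698). The call between May and catagen was lost without the female May library alone (-0.83, adjusted p = 0.14).

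The miR-148b arm ratio was highest in the telogen libraries. It was 18.6 (female) and 21.7 (male) per 1000 in February and 24.1 and 17.6 in March. In May it was 10.8 and 13.2, in September 9.47 and 9.87, in November 9.23 and 11.1, and in December 15.6 and 12.8. The 4 telogen libraries lay above the other 8, and how many of the 87 precursors separated in this way was not counted. The arm ratio test was passed by 49.4% of these precursors from catagen to telogen and by 39.1% from telogen to September. From catagen to telogen the log2 ratio rose by 0.76 (SE 0.22, adjusted p = 0.0102), a call that held in all 12 fits that each left out 1 library. September was lower than telogen by a log2 value of -1.07 (SE 0.27, adjusted p = 0.00486), lost only without the female September library (-1.04, adjusted p = 0.0649). From telogen to May the value was -0.77 (SE 0.27, adjusted p = 0.0554), where 11.5% of precursors passed, and it passed without the female December (adjusted p = 0.0347) or the male March library (-0.84, adjusted p = 0.0476). Between September and catagen neither precursor passed, nor did any other of the 87 (0%).

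The miRNAs whose pattern was most like that of each guide strand were taken as the 3 with the highest Pearson correlation of log2 TMM-normalized levels over the 12 libraries, among 296 other tested miRNAs. For miR-148a-3p these were miR-191-5p (r = 0.93), miR-151-3p (0.92) and miR-100-5p (0.89). For miR-148b-3p they were miR-423-5p (0.92), let-7e-5p (0.90) and miR-296-3p (0.89). Between the members, r was 0.63 for both guide strands, 0.38 for the arms of miR-148a and -0.34 for those of miR-148b. The values share libraries and scaling factors and are given as a description. On log2 TPM, r of both guide strands was 0.22.

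Other miRNAs are known for acting on DNA methyltransferases, the enzymes of the family's best known target. Of 9 such miRNAs, 7 were listed and tested, and miR-143-3p, miR-126-3p and miR-101-3p had the highest mean TPM. The miR-29 family, of which miR-29b-3p is a member, is known to act on DNMT3A and DNMT3B, which set new methylation. From May to September 2 of the 7 were called higher (miR-29b-3p at a log2 fold change of 1.30 and miR-143-3p) and 1 lower (miR-140-5p, -1.04), where 9.67% of all tested miRNAs were called higher and 8.67% lower, with a list median of 0.63 against 0.07 for all tested miRNAs. From telogen to May miR-29b-3p was called lower (-1.91) and no other of the 7, against 2.33% of all miRNAs. From May to catagen miR-143-3p (1.02) and miR-29b-3p (1.62) were called higher, 2 of 7 against 16.7% of all miRNAs called in either direction. miR-29a-3p, of the same family but at a higher mean TPM than miR-29b-3p (2267 against 32.1), was called in none of these steps. Its log2 fold change was -0.30 from May to September (adjusted p = 0.493), -0.62 from telogen to May (0.163) and -0.18 from May to catagen (0.602). In the other 3 comparisons none of the 7 was called.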

How the data were processed

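Small RNA was measured in 12 libraries of goat SHFs. Adapters were removed by the authors, the reads aligned to the goat genome, and known miRNAs quantified with Bowtie 0.12.9, the version given in the submitters' processing notes. The authors deposited a raw count per miRNA and library, and a deposited TPM that differed by at most 0.00499 from this count once scaled to its library's sum. How reads matching several miRNAs were assigned is not given in the sources used here, and mature sequences were not used here.

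Libraries were grouped by the month in their titles. The analysis ran in R 4.3.3 with edgeR 4.0.16 (TMM, glmQLFit and glmQLFTest, 12 libraries with 4 groups in 1 model) for miRNAs above 5 CPM in at least 2 libraries, and adjusted p is Benjamini-Hochberg over all 300. The SE is the size of the log2 difference over the root of F, and intervals use the model's degrees of freedom. Arm ratios were tested with limma 3.58.1 with 1 added to each count, as in the guide-strand ratio. DESeq2 1.42.0, RLE normalization, library totals, a likelihood-ratio test, other count filters, sex as a term, other added counts and leaving out libraries were alternatives. Sums and ratios of members received no test. Tests were tried on simulated counts.

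All members were named, with the 3 miRNAs most like each guide strand, neighbours in rank, and up to 3 of each list by mean TPM. Called list miRNAs outside these 3 (miR-29b-3p, miR-140-5p and miR-200a) were named after their values were seen. So was miR-29a-3p, which was not called, and miR-205-5p was named as not listed. Members and lists were chosen with earlier results of these data known. A floor of 3 counts was a TPM of 0.518 to 0.957.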

Additional observations from a re-analysis of the deposited data

Results flagged for a closer look

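Each of 11 quantities (the TPM of the 4 members and the sums and ratios of them) was checked in the 4 telogen and the 4 catagen libraries for a library far from the other 3, which chance alone gives in about 1 of 20 such groups. Of 22 groups, 1 held such a library. In the female February library there were 3.61 counts of miR-148a-5p per count of miR-148b-5p, against 3.04 to 3.11 in the other telogen libraries. Its 95% Wilson interval, from 667 and 185 counts, was 3.06 to 4.24, which took in the values of the male February (3.07) and male March (3.11) libraries but not that of the female March library (3.04). The interval of the female March library itself, 2.55 to 3.61, overlapped that of the female February library.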

How the results depend on the processing

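Of the 480 phase values of members under alternatives, 455 kept their direction and their side of the threshold. Of 180 arm ratio values, 5 changed sign, 4 passed the test newly and 19 no longer did. With library totals the step from May to September gave a log2 value of 0.83 for miR-148a-3p, no longer 2-fold, -0.22 for miR-148a-5p, -0.085 for miR-148b-3p and -0.39 for miR-148b-5p, in the phase and the month fits alike. They also gave -0.26 for miR-148a-5p from telogen to September, -0.37 for miR-148b-3p and -0.36 for miR-148b-5p from May to catagen, 0.038 for miR-148a-3p and 0.072 for miR-148a-5p from March to May, and 0.012 for miR-148a-5p from female to male. miR-148a-5p from telogen to September was at -0.031 with RLE normalization and with DESeq2, and at -0.0018 with at least 10 counts in 4 libraries. With sex as a term miR-148a-3p from May to catagen was at 1.0001, past the limit. Between the sexes miR-148b-3p was at -0.00089 with phase in place of month, -0.035 without March and -0.057 without December, and miR-148b-5p at -0.024 without February. The shared-seed total in May was 53847 with TMM. The miR-148a arm ratio from telogen to September was -0.77 with 0.5 added, no longer past the test, and that of miR-148b from telogen to May passed at -0.75 with 5 added and at -0.77 with a minimum of 50 counts. The causes of these changes were not tested.

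With 1 library left out, miR-148a-3p ran from 1.05 to 1.62 from May to September, from 0.49 to 1.06 from telogen to September and from 0.78 to 1.16 from May to catagen. miR-148a-5p ran from -0.10 to 0.094 from telogen to September and from -0.15 to 0.034 from May to catagen, and miR-148b-5p from -0.16 to 0.19 from May to September and from -0.077 to 0.26 from May to catagen. The miR-148a arm ratio ran from -1.30 to -0.76 from May to September, from -0.22 to 0.33 from September to catagen, from 0.63 to 0.90 from catagen to telogen, from -1.05 to -0.50 from telogen to September and from -1.13 to -0.83 from May to catagen. That of miR-148b ran from -0.92 to -0.62 from telogen to May, from -1.14 to -0.99 from telogen to September and from -0.14 to 0.15 from May to catagen.

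Over all miRNAs, calls with 1 library left out numbered 0 to 27 from telogen to May (7 with all libraries), 27 to 69 from May to September (55), 0 to 1 from September to catagen (0), 23 to 37 from catagen to telogen (32), 6 to 37 from telogen to September (28) and 27 to 57 from May to catagen (50). Under the other settings these were 0 to 15, 55 to 80, 0 to 1, 26 to 48, 18 to 42 and 46 to 82. Libraries of different months could not be paired by animal, because the labels carry no replicate numbers to pair by. Sex as a term in the phase fits and month as a term in the sex fit were the blocked fits that were run. Counts of 78 to 667 limit the precision of the 5p arms.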

Other observations

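After TMM normalization the guide strands varied more between libraries and the passenger arms less. The coefficient of variation over the 12 libraries went from 27.1% in TPM to 38.7% for miR-148a-3p and from 21.0% to 26.5% for miR-148b-3p. It went from 20.3% to 13.1% for miR-148a-5p and from 19.4% to 11.7% for miR-148b-5p, while the median of the 300 tested miRNAs was 33.1% and 29.4%. On the TMM scale 11 of the 300 varied less than miR-148b-5p, 19 less than miR-148a-5p, 119 less than miR-148b-3p and 215 less than miR-148a-3p. In TPM these numbers were closer together, at 59, 66, 73 and 110 in the same order.

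Counts of miR-148a-5p per count of miR-148b-5p, the ratio of the passenger arms, stayed between 2.59 and 3.80 in all 12 libraries, a 1.47-fold range, where that of the guide strands had a 3.13-fold range. The passenger ratio in May was 3.79 (female) and 2.89 (male), within the range of the other months, unlike the guide-strand ratio.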
